A study of Homo sapiens with 12 samples.

Results

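In Proximity-CLIP, 786 of 19892 human genes carried at least 3 footprint clusters in their 5' untranslated regions (5' UTRs), summed over 4 pooled footprint libraries. A cluster is a stretch of transcript where reads from crosslinked, protein-protected RNA fragments pile up. The genes were chosen by adding, gene by gene, the 5' UTR clusters of a negative control line and of 3 lines with APEX2 placed by NES, H2B or Connexin43, and keeping sums of 3 or more. Their cluster and read counts are therefore given as a description of these libraries. Of all genes in the sheets, 3297 had at least 1 cluster of this kind.

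The 5' UTR is the stretch a scanning ribosomal subunit crosses before it reaches the start codon, and proteins or short upstream open reading frames within it set how often the main protein is made. Well-known examples are the iron-responsive element, a hairpin bound by iron regulatory proteins, the terminal oligopyrimidine (TOP) tract of ribosomal protein transcripts, and the upstream reading frames of stress-response transcripts. In the nucleus the same stretch lies near the cap and the first exon junction, where export and splicing factors assemble.

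All 12 samples came from HEK293 T-REx cells, an established line of human embryonic kidney origin made for inducible expression, and formed 12 groups of 1 sample. Stable lines inducibly expressed V5-APEX2-NES, in which the peroxidase APEX2 is exported to the cytoplasm, V5-H2B-APEX2, in which it sits on a histone in chromatin, or Connexin43-EGFP-APEX2, in which it is fused to a gap junction protein. The negative control was T-REx without APEX2. All 4 lines, the control included, were given 4-thiouridine together with doxycycline for 16 h, then biotin-phenol for 30 min, and were biotinylated and crosslinked by ultraviolet light. Whether each line is 1 clone is not given by the labels. Each line gave 1 library of footprints, 1 of streptavidin-bound RNA and 1 of total RNA, so no difference below has a replicate check and no p-value is given. Intervals cover counting error only, and reads amplified by PCR without molecular identifiers are not independent molecules.

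The elements that some of these 5' UTRs are known for are shown here because the lists of TOP and iron-responsive transcripts below turn on them. Sequences are RefSeq's on GRCh38.p14 and start at an annotated transcript start, except for FTL, whose window covers bases 23 to 50 after the start. FTL encodes the ferritin light chain, the iron storage subunit. The capitals mark the 6-base loop of its iron-responsive element at chr19:48965331-48965358 on the plus strand, and in the other sequences the run of C and T at the start.
FTL: ctgtctcttgcttcaaCAGTGTttggac
NACA: CTTTCTgccgccatcttggttccg
RPL31: CTTCCTTTCCaacttggacgctgc
RPL13: CTTTCCgctcggctgttttcctgc
EEF1B2: CCTTTTTCCTCTCTTCagcgtggg
RPL9: agacgttctttctttgctgcgtct
NACA (chr12:56725276-56725299, minus strand) encodes a chaperone of nascent chains, RPL31 (chr2:101002289-101002312, plus strand), RPL13 (chr16:89560682-89560705, plus strand) and RPL9 (chr4:39458899-39458922, minus strand) encode ribosomal proteins, and EEF1B2 (chr2:206159895-206159918, plus strand) encodes an elongation factor subunit. RPL13 and EEF1B2 have other annotated starts as well, and the annotated start of RPL9 carries no pyrimidine run at its first base. The same holds for the annotated starts of RPL6 and RPL32, which are not shown. A C followed by at least 4 C or T stood at an annotated start of 5.14% of 27305 genes, of 75.6% of the 78 matched ribosomal protein and other TOP genes, of 4 of the 7 matched ones with 3 or more clusters (57.1%), and of 6.61% of the 635 genes with 3 or more clusters that matched. Among 2756 other genes with bound RNA, that share was 9.69%, while the 635 were not filtered on bound RNA. CAGTGC or CAGTGT on the transcript strand occurred in the first 50 bases of 4.25% of the 635 genes and of 3.66% of all genes. The sheets count clusters by region, so where a cluster lies within a 5' UTR was not analysed here, and a match is not a binding site.

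The 4 footprint libraries differed in depth and in the regions they sampled. H2B-APEX2 had 133881 clusters, APEX2-NES 45015, Connexin43-APEX2 23104 and the control 20850, with 1741844, 575990, 270633 and 185487 crosslinked reads in that order. Introns held 42.7% of the placed clusters in H2B-APEX2 and between 6.15% and 15.2% in the other lines. Reads in clusters placed in none of the 4 regions (5' UTR, coding sequence, 3' UTR, intron) made up 11.3% to 15.6% of a line's reads. Of 5 marker genes for HEK293 cells, PAX2 and LIN28B were below 0.1 RPKM in all 4 total RNA libraries while KRT8 lay between 2.74 and 6.59 RPKM. Summed RPKM of 6 fibroblast markers in bound RNA was 2.77 in H2B-APEX2, 30.6 in Connexin43-APEX2, 67.0 in APEX2-NES and 89.7 in the control. In total RNA the sums were 3.81, 13.0, 5.38 and 7.33 in that order. Summed RPKM of 3 red cell markers in total RNA was 34.4 in H2B-APEX2 and 8.50 to 11.1 in the other lines. All of it came from HBA1 and HBA2 (18.0 and 16.4 RPKM in H2B-APEX2), while HBB was not detected in any RNA library. None of the marker genes was among the 786, and the part of other cells in the results was not tested. These are bulk libraries, in which fewer cells of a type and less RNA per cell cannot be told apart.

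5' UTR clusters were a small class in every line, and their share of all clusters was lowest on chromatin. The negative control had 692, or 3.57% of its placed clusters (exact 95% interval 3.31 to 3.84). APEX2-NES had 1874, or 4.59% (4.39 to 4.80), H2B-APEX2 had 3275, or 2.64% (2.55 to 2.73), and Connexin43-APEX2 had 1087, or 5.15% (4.85 to 5.45). The 4 intervals do not overlap. Among exonic clusters alone, with introns left out, the shares were 4.21% (3.91 to 4.53) in the control, 4.89% (4.68 to 5.11) in APEX2-NES, 5.74% (5.41 to 6.08) in Connexin43-APEX2 and 4.61% (4.46 to 4.77) in H2B-APEX2. On that basis the H2B-APEX2 share lay between those of the control and APEX2-NES, its interval overlapped both, and only Connexin43-APEX2 stood clear of the other 3 lines. A 5' UTR cluster held on average 7.62 reads in the control, 11.2 in APEX2-NES, 10.5 in Connexin43-APEX2 and 13.1 in H2B-APEX2.

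**Figure D1:**
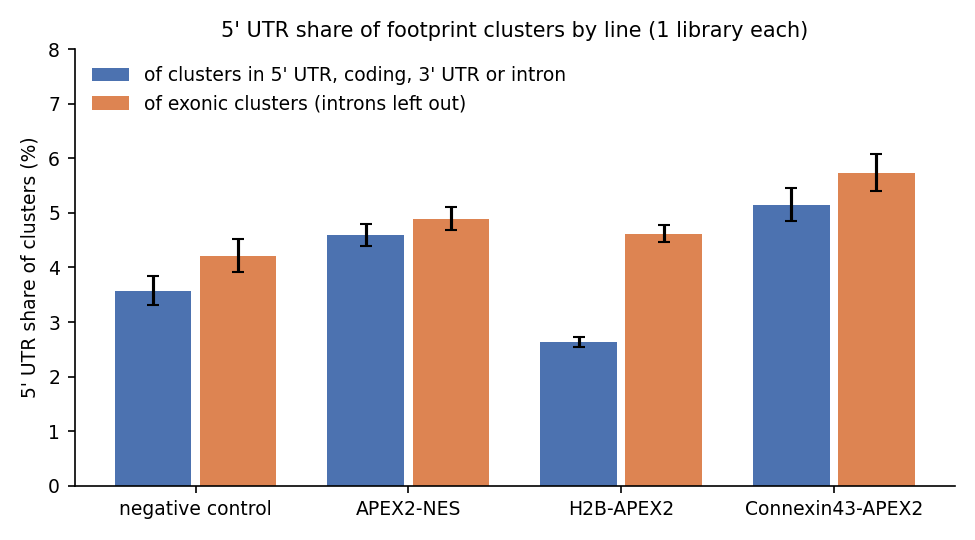
Share of footprint clusters in 5' UTRs (percent) in each line, of all placed clusters (blue) and of exonic clusters (orange), with exact 95% intervals for counting error and 1 library per line. The H2B-APEX2 share is 2.64% of placed clusters and 4.61% of exonic clusters, while Connexin43-APEX2 is highest on both bases.

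The 786 genes spread unevenly over the lines. At least 1 cluster in the 5' UTR was called for 708 of them in H2B-APEX2, 632 in APEX2-NES, 474 in Connexin43-APEX2 and 348 in the negative control, an order that follows the number of clusters called. Clusters in all 4 lines were found for 139 genes, in 3 lines for 362, in 2 for 235 and in 1 for 50. The most frequent pattern, with 188 genes, was a cluster in each APEX2 line and none in the control. H2B-APEX2 alone held the clusters of 47 genes and APEX2-NES alone those of 3. Neither Connexin43-APEX2 nor the control alone held the clusters of any. A gene found in 1 line alone needed 3 clusters there, and the control had 692 5' UTR clusters against 3275 in H2B-APEX2. These patterns therefore depend on the rule and on depth, and were not counted over all 3297 genes with a 5' UTR cluster.

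Most genes were close to the threshold. A summed count of 3 was reached by 353 genes, 4 by 169, 5 to 9 by 217 and 10 or more by 47, with a median of 4. The genes just inside, with 3 clusters, had 12 to 940 5' UTR reads over the 4 lines with a median of 27.0, and the 752 genes just outside, with 2 clusters, had 6 to 432 with a median of 15. Where a gene had clusters, its median number of 5' UTR reads was 7 in the control, 13.0 in APEX2-NES, 10.0 in Connexin43-APEX2 and 21.5 in H2B-APEX2. Most genes are thus known from few reads, and the values named below come mainly from the deeper end.

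The largest number of clusters, 38, belonged to C6orf62 (chr6:24705089-24721064 in hg19, the build of the sheets), with 9 in the control, 13 in APEX2-NES, 6 in Connexin43-APEX2 and 10 in H2B-APEX2. Its annotated 5' UTR can reach 2168 bases, which makes 17.5 clusters per 1000 bases. ZNF146, a zinc finger protein gene, had 19 clusters and CLDN15, which encodes a tight junction claudin, had 18. TOR1AIP2, which encodes an activator of torsin ATPases, also had 18. All 4 had clusters in every line.

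Long 5' UTRs were common among these genes. The longest annotated 5' UTR had a median of 504 bases in the 784 genes that matched GENCODE 29, against 240 bases in 3511 other genes with a mean bound RPKM of at least 1. Genes with 10 or more clusters reached a median of 1012 bases. Of genes with bound RNA at that level, 0.924% of those with at most 100 bases of 5' UTR had 3 or more clusters, then 1.86%, 9.96% and 16.9% in the next length classes, and 26.3% of those with over 800 bases. At least 1 ATG lay in the longest 5' UTR of 83.7% of the genes, with a median of 3, against 60.0% and a median of 1 in the other genes. Longer sequences have more room for both clusters and ATGs, and the part of length in the ATG counts was not tested. Median GC content was 62.0% against 64.5%, and the share of U, the base that 4-thiouridine replaces, was 20.1% against 18.1%. The other genes were filtered on bound RNA and the 784 were not. Over all genes in the sheets that matched, the median length was 259 bases, GC content 61.6% and U 19.0%, and 65.5% had an ATG. The 5' UTR of 159 genes (20.3%) overlapped an exon of another gene, so their clusters may belong to either. WDR83OS is an extreme case, with 11 clusters against an annotated 5' UTR of 86 bases.

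**Figure D2:**
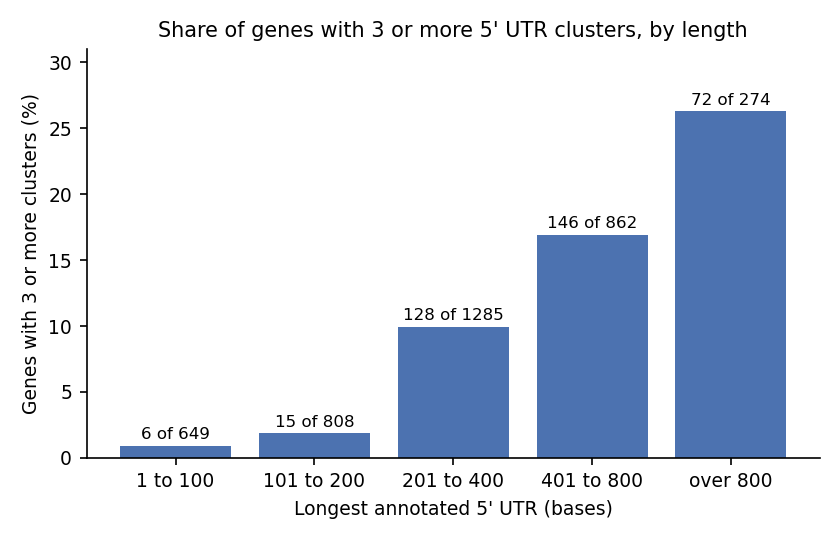
Percentage of genes with a mean bound RPKM of at least 1 that had 3 or more 5' UTR clusters, by the length of the longest annotated 5' UTR in GENCODE 29 (bases), with the number of such genes of all in the class above each bar. The share goes from 0.924% at up to 100 bases to 26.3% above 800 bases.

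The genes were mostly of low abundance in the RNA libraries, but their medians were above those of other protein-coding genes. In bound RNA the median was 1.13 RPKM in the control, 0.828 in APEX2-NES, 0.654 in Connexin43-APEX2 and 0.898 in H2B-APEX2, and 45.2% to 66.0% of the genes were below 1 RPKM. The medians of other protein-coding genes lay between 0.171 and 0.314 RPKM. In total RNA the median was 0.196 to 0.237 RPKM, beside 0.0433 to 0.0628 RPKM in other protein-coding genes. Many of the genes were thus below 1 RPKM in a line's RNA. These values include genes without a 5' UTR cluster in that line.

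A group of transcripts held a high share of 5' UTR reads in all 4 lines. Shares are given as reads per 10000 of the line's reads in 5' UTR clusters, which were 5275 in the control, 21061 in APEX2-NES, 11408 in Connexin43-APEX2 and 42947 in H2B-APEX2. CDKN1B (chr12:12867992-12875305), the gene of the cyclin-dependent kinase inhibitor p27, had 66 reads in the control, 191 in APEX2-NES, 98 in Connexin43-APEX2 and 501 in H2B-APEX2. These are 125, 90.7, 85.9 and 117 per 10000, so its share varied by 1.46-fold between the highest and the lowest line. CDKN1B footprints were concentrated in the 5' UTR: 501 of the gene's 759 crosslinked reads in H2B-APEX2 and 191 of its 310 in APEX2-NES were placed there.

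By these shares, ZNF146 was the steadiest of all 139 genes found in every line. It had 52, 171, 352 and 96 reads (control, then APEX2-NES, then H2B-APEX2, then Connexin43-APEX2, the order used from here on), or 98.6, 81.2, 82.0 and 84.2 per 10000, and its 5' UTR overlaps an exon of ZNF565 on the opposite strand. TAF7, an intronless gene that encodes a subunit of the general transcription factor TFIID, had 29, 148, 283 and 65 reads, or 55.0, 70.3, 65.9 and 57.0 per 10000. In both genes the highest share was less than 1.5-fold above the lowest. This range depends on the scale, and other scales were not tried for it. HMGB2, which encodes a high-mobility group chromatin protein, had 28, 87, 331 and 98 reads, or 53.1, 41.3, 77.1 and 85.9 per 10000, beside 1477 unplaced reads in H2B-APEX2. C6orf62 had 81, 214, 249 and 79 reads, or 154, 102, 58.0 and 69.2 per 10000, with its highest share in the control.

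Few shares were steady on this scale. Over the 139 genes with clusters in every line the ratio of the highest to the lowest share had a median of 3.99, with 10 genes below 2-fold and 68 at 4-fold or more. Counting error and the choice of scale both enter this ratio, and their part in it was not tested. NIPA2, which encodes a magnesium transporter, was at the far end with 10, 43, 4 and 14 reads, a 21.9-fold range. HP1BP3, which encodes a heterochromatin-binding protein, had 18, 6, 200 and 14 reads, or 34.1, 2.85, 46.6 and 12.3 per 10000. Its 16.3-fold range lay between H2B-APEX2 and APEX2-NES, and the control was near H2B-APEX2. RABEP1, which encodes the endosomal Rab5 effector rabaptin, held the largest single count, 794 reads from 1 cluster in H2B-APEX2, beside 41 in the control, 105 in APEX2-NES and no cluster in Connexin43-APEX2. Its share was 77.7, 49.9 and 185 per 10000 in the first 3 lines, and its bound RNA was likewise highest in H2B-APEX2, at 9.37 RPKM against 0.814 to 1.58 in the other lines.

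**Figure D3:**
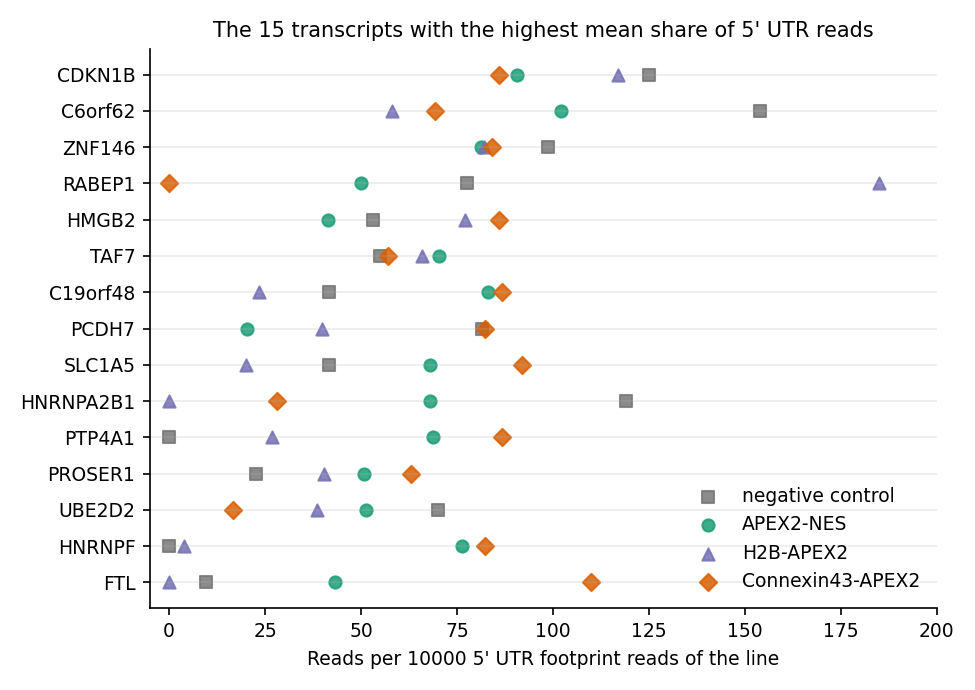
Reads per 10000 5' UTR footprint reads of the line (linear axis) for the 15 genes with the highest mean share over the 4 lines, with 1 marker per line. ZNF146 and TAF7 have markers close together, RABEP1 reaches 185 in H2B-APEX2, and FTL, PTP4A1 and HNRNPF range from 0 or close to 0 to above 80.

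Footprints of the chromatin and cytoplasm lines were then set side by side, as shares of each line's 5' UTR reads. These shares are not divided by a transcript's bound RNA, so they do not by themselves show where a 5' UTR is occupied. Higher shares in H2B-APEX2 were found for transcripts such as HP1BP3, LUC7L3, a splicing factor gene, and LATS1, a kinase gene of the Hippo pathway. Lower shares there were found for FTL, PPP1R15A, which encodes a phosphatase subunit of the stress response, and PPP6R1, which encodes a regulatory subunit of protein phosphatase 6. A gene was called when its share differed at least 4-fold with a 95% interval that excluded 2-fold, among genes with at least 10 reads over both lines. Of 751 genes tested, 129 were higher (17.2%) and 106 lower (14.1%) in H2B-APEX2 than in APEX2-NES. Over all 1582 genes with 5' UTR reads, 18.6% were higher and 19.0% lower, so the genes with 3 or more clusters were not called more often than the background. The balance turned with the scale, since a share of reads in all clusters gave 78 higher and 138 lower.

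Many calls rested on a line without a cluster. Of the 129 higher genes 108 had no cluster in APEX2-NES, and of the 106 lower genes 63 had none in H2B-APEX2. The 47 genes with clusters in H2B-APEX2 alone entered the 786 through that line, and 3 genes entered through APEX2-NES alone. Calls among them follow from the choice of genes. A gene's missing reads can also sit in clusters that were placed in no region. Counting all such reads of a gene as 5' UTR reads in the lower line left 85 of the 129 higher and 42 of the 106 lower calls. The genes of the next 3 paragraphs kept their call under that count. They were chosen after their values were seen, except for FTL and TTLL3.

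FTL (chr19:49468558-49470135) had 5, 91, 0 and 125 5' UTR reads, or 9.48, 43.2, 0 and 110 per 10000. No cluster was called in its 5' UTR in H2B-APEX2, where the whole gene had 12 crosslinked reads, none of them unplaced. Bound FTL RNA was 91.1, 105, 8.84 and 97.9 RPKM, lowest in the same line, while total RNA was 236, 211, 136 and 498 RPKM. FTL was the only 1 of 6 transcripts with a known iron-responsive element that had a cluster in its 5' UTR.

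HP1BP3 had 200 reads in H2B-APEX2 and 6 in APEX2-NES, a 16.3-fold higher share (95% interval 7.38 to 45.1). Its share in the control, 34.1 per 10000, was near the 46.6 of H2B-APEX2. LUC7L3 had 129 and 7 reads, a ratio of 9.04 (4.26 to 22.9). For LATS1 the counts were 54 and 3, a ratio of 8.83 (2.86 to 44.1). TTLL3, a tubulin glycylase gene, had 253 reads in H2B-APEX2 and no cluster in APEX2-NES, beside 13 reads in the control and 4 in Connexin43-APEX2. In TTLL3 the annotated 5' UTR overlaps exons of the read-through gene ARPC4-TTLL3.

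In the other direction, PPP6R1 had 4 reads in H2B-APEX2 and 31 in APEX2-NES, a ratio of 0.0633 (0.0162 to 0.179). BANF1, which encodes a DNA-binding protein of the nuclear envelope, had 4 and 30 reads, a ratio of 0.0654 (0.0167 to 0.186). For MAF1, a repressor of RNA polymerase III, the counts were 9 and 48, a ratio of 0.0919 (0.0397 to 0.189). These 3 genes had clusters in both lines, so their ratios rest on called clusters at both ends.

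HNRNPF, a splicing regulator gene, showed how placement bears on such values. It had 0, 161, 17 and 94 reads in 5' UTR clusters, and its share in H2B-APEX2 was 0.0518 times that in APEX2-NES (0.0294 to 0.0855). H2B-APEX2 held 390 further HNRNPF reads in clusters placed in no region, and APEX2-NES 408. HNRNPA2B1, another gene of the family, had 63, 143, 0 and 32 reads in the 5' UTR and 715 unplaced reads in H2B-APEX2. Neither gene kept its call once unplaced reads were counted. Of the 78 genes without a 5' UTR cluster in H2B-APEX2, 48 had 10 or more unplaced reads there and 20 had none.

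**Figure D4:**
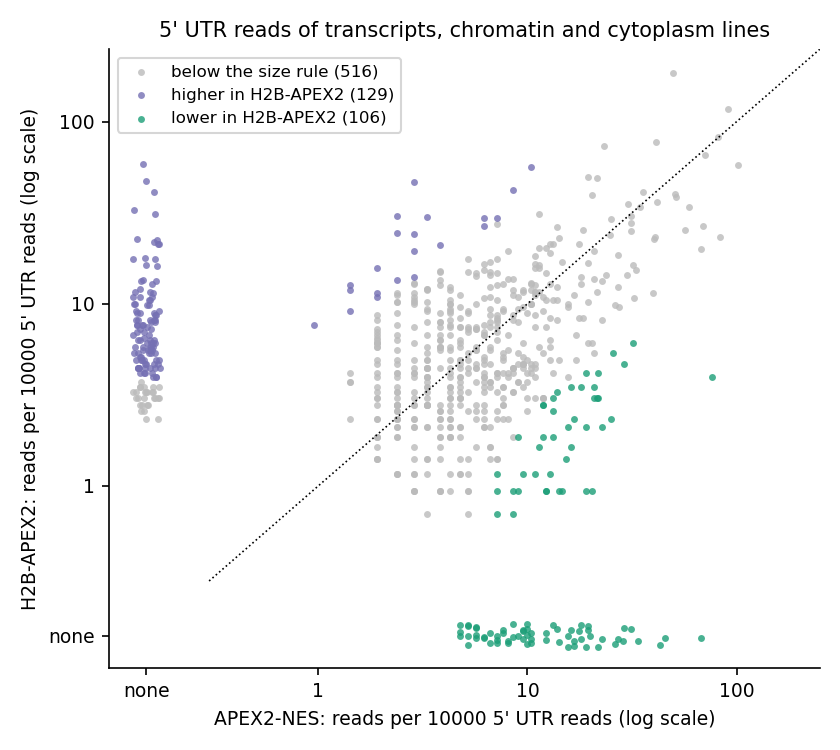
Share of 5' UTR reads per gene in APEX2-NES and H2B-APEX2 (reads per 10000, log scales), for the 751 genes tested, with genes that had no cluster in a line drawn at "none" with random spread along that axis. Purple marks the 129 genes called higher and green the 106 called lower in H2B-APEX2, and most calls lie at "none".

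Genes that were lower on chromatin had 5' UTRs richer in G and C. The median GC content was 66.5% in the 106 lower genes, 60.0% in the 129 higher genes and 61.9% in the 516 that were not called. Median length was 442, 517 and 518 bases. With 1 library per line, base composition of the footprint libraries cannot be told apart from the place labelled.

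Between Connexin43-APEX2 and APEX2-NES, SMC4 and RPTOR had higher shares at the gap junction fusion and HSP90AB1 a lower one. Of 567 genes tested, 63 were higher (11.1%) and 90 lower (15.9%) in Connexin43-APEX2, against 18.1% and 16.9% of all 960 genes. With TMM factors, described with the control comparisons, they were 49 and 151. Clusters in both lines were present for 21 of the higher and 10 of the lower genes, and counting unplaced reads left 21 and 53. SMC4, which encodes a condensin subunit, had 36 reads in Connexin43-APEX2 and 6 in APEX2-NES, an 11.1-fold higher share (4.62 to 32.2). RPTOR, which encodes the mTOR partner raptor, had 18 and 4 reads, a ratio of 8.31 (2.74 to 33.7). HSP90AB1, a chaperone gene, had 6 and 66 reads, a ratio of 0.168 (0.0595 to 0.385). All 3 calls held with unplaced reads counted. GJA1, the gene of connexin43 itself, had no 5' UTR cluster in any line. No gene of a list of 21 cell junction components was among the 786, which are 3.95% of all genes in the sheets.

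Between Connexin43-APEX2 and H2B-APEX2, 94 of 701 genes were higher (13.4%) and 109 lower (15.5%) in Connexin43-APEX2, against 15.4% and 11.7% of all 1394 genes. The balance was set by the scale, with 145 higher and 44 lower by reads in all clusters and 58 and 224 by TMM. Clusters in both lines were present for 48 of the higher and 11 of the lower genes, and 39 and 82 calls were left with unplaced reads counted. PPP6R1 was 38.6-fold higher (14.0 to 148), with 41 reads against 4. MAF1 was 18.8-fold higher (9.09 to 43.8), with 45 reads against 9. TTLL3 was lower by a ratio of 0.0595 (0.0161 to 0.154) and HSP90AB1 by 0.188 (0.0677 to 0.422). PPP6R1 and MAF1 thus had larger shares than in H2B-APEX2 in both other APEX2 lines, which share H2B-APEX2 as the line compared. The higher genes again had a median GC content of 67.8% against 60.0% in the lower ones.

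Reads in the negative control, which has no APEX2, give the level of RNA that is recovered without biotinylation by the fusion. Against it, 27 of 651 genes were higher in H2B-APEX2 (4.15%, with 3.28% over all 1250 genes) and 58 lower (8.91%, with 8.80% over all). In APEX2-NES 32 of 509 were higher (6.29%, with 6.06% over all 809) and 47 lower (9.23%, with 10.3%). In Connexin43-APEX2 45 of 346 were higher (13.0%, with 13.9% over all 531) and 38 lower (11%, with 14.1%). The share of calls was close to that over all genes in each case, and the 3 comparisons share the control library. With so few control reads, a higher call there mostly meant that the control had no cluster: clusters in both lines stood behind 1, 0 and 2 of the higher calls.

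PTP4A1, RBM39 and SRSF3 were called higher than the control in all 3 APEX2 lines, and none had a cluster in the control. PTP4A1, a protein tyrosine phosphatase gene, had 0, 145, 115 and 99 reads, in a 5' UTR that overlaps another annotated gene. RBM39, a splicing factor gene, had 0, 49, 315 and 55 reads. SRSF3, a gene of the serine- and arginine-rich splicing factors, had 0, 75, 176 and 33 reads. In the control, PTP4A1 had 11 unplaced reads, RBM39 19 and SRSF3 none. With unplaced reads counted, SRSF3 kept all 3 calls, PTP4A1 only that in Connexin43-APEX2, and RBM39 none. Their bound RNA in the control was 1.85, 2.47 and 3.84 RPKM, so the transcripts themselves were recovered there. Lower calls in all 3 lines were made for 9 genes: APBB2, DCUN1D5, ENAH, M6PR, NR6A1, RAP2B, SMIM19, TRA2A and UBQLN1. Of the last 2, TRA2A kept none of its calls with unplaced reads counted and UBQLN1 kept all 3. Calls shared by all 3 lines were not counted over all genes.

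Because the shares are relative, the choice of scale moved these counts. Scaling by reads in all clusters placed H2B-APEX2 at 9.39 times the control, the share of 5' UTR reads at 8.14 times, the median of ratios over 139 genes at 4.39 times and TMM, which trims extreme genes, at 3.42 times. With TMM, 141 genes were higher than the control in H2B-APEX2 and 25 lower, in place of 27 and 58. The balance of calls turned with the scale in H2B-APEX2 and in APEX2-NES (32 higher and 47 lower, with TMM 118 and 31). In Connexin43-APEX2 higher calls outnumbered lower ones on each scale tried. The median log2 ratio of genes with clusters in both lines lay below 0 in each APEX2 line on the scale of 5' UTR shares, at -0.93 for H2B-APEX2 and -0.43 for Connexin43-APEX2.

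Transcripts with known upstream reading frames were well represented, by a list chosen with earlier results of these data known. Of a list of 20 such genes, 12 had 3 or more 5' UTR clusters (60.0%, against 3.95% of all genes in the sheets and 9.34% of those with bound RNA). Over the list's genes, the longest annotated 5' UTR has a median of 452 bases. Of genes with bound RNA and a longest 5' UTR of 401 to 800 bases, 16.9% had 3 or more clusters. The part of length in the share of the list was not tested. The 12 were CDKN1B, PTP4A1, SLC35A4, AMD1, PPP1R15A, PPP1R15B, MDM2, AZIN1, SLC7A1, EIF5, EPRS and DDIT3. Together the 12 held 317 of every 10000 5' UTR reads in the control, 294 in APEX2-NES, 294 in Connexin43-APEX2 and 186 in H2B-APEX2.

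Between H2B-APEX2 and APEX2-NES none of the 12 was higher and 6 were lower in H2B-APEX2, beside 19.0% of all 1582 genes and 14.1% of the 751 lower there. The 8 genes with clusters in both lines had a median log2 ratio of -1.28, beside -0.18 over the 552 such genes of the 786. SLC35A4, whose upstream frame is translated, had 24, 61, 20 and 34 reads, a share in H2B-APEX2 of 0.161 times that in APEX2-NES (0.0919 to 0.270). AMD1, the polyamine enzyme gene with a polyamine-sensing upstream frame, had 24, 67, 26 and 21 reads, a ratio of 0.190 (0.116 to 0.303). PPP1R15A had 3, 34, 0 and 11 reads. CDKN1B was not called, with a ratio of 1.29 (1.09 to 1.53). The other lower genes were AZIN1, MDM2 and SLC7A1. Only PPP1R15A kept its call with unplaced reads counted, so 1 of 6 held under that count.

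**Figure D5:**
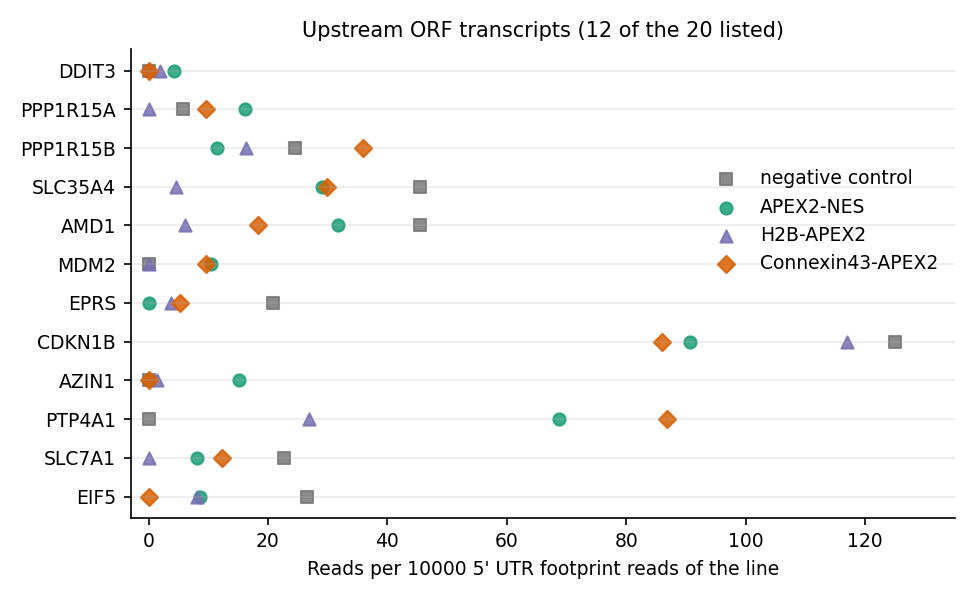
Reads per 10000 5' UTR footprint reads of the line for the 12 genes with known upstream reading frames and 3 or more clusters, with 1 marker per line and 0 where no cluster was called. The H2B-APEX2 marker lies left of the APEX2-NES marker for 9 of the 12 genes, with CDKN1B, PPP1R15B and EPRS as the exceptions.

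Among TOP transcripts, 5 of 78 ribosomal protein genes reached 3 clusters (6.41%), and 3 of 22 other TOP genes did (13.6%). Beside them stood 3.95% of all genes and 9.34% of those with bound RNA. Over the list of ribosomal protein genes, the longest annotated 5' UTR of a gene had a median of 277 bases, which need not be the one in use. RPL9 had 11, 13, 115 and 44 reads, and RPL32 had 0, 5, 105 and 6. Both were called higher in H2B-APEX2 than in APEX2-NES, RPL9 by 4.34-fold (2.44 to 8.39) and RPL32 by 10.3-fold (4.28 to 32.4), and neither kept the call with its unplaced APEX2-NES reads counted. RPL6 and RPL13 were lower, with no cluster in H2B-APEX2. NACA had 15, 41, 212 and 41 reads, and its share in H2B-APEX2 was 2.54 times that in APEX2-NES (1.81 to 3.63), below the size rule. Its annotated 5' UTR overlaps an exon of another gene.

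Of 24 hnRNP genes in the sheets, which encode RNA-binding proteins of the nucleus, 9 were among the 786 (37.5%). Over all genes in the sheets the share was 3.95%, and over those with bound RNA 9.34%. Of 14 SR protein genes 2 were (14.3%), and of 43 translation initiation factor genes 4 (9.30%). In H2B-APEX2 against APEX2-NES, HNRNPAB and HNRNPC were higher, HNRNPA0, HNRNPA2B1, HNRNPF and HNRNPH3 lower, and 0 of the 6 calls held with unplaced reads counted. Of 22 growth regulators with long 5' UTRs 9 were included (40.9%), among them BCL2, VEGFA and XIAP. That list was drawn up for long 5' UTRs (the longest annotated ones had a median of 502 bases), which had 3 or more clusters more often. XIAP, an apoptosis inhibitor gene, was called higher in H2B-APEX2 than in APEX2-NES, with 24 reads against no cluster, and the call held with unplaced reads counted. JUN, an immediate early transcription factor gene, had 24, 41, 72 and 72 reads. EIF4G2, an initiation factor gene, had 96 reads, all in APEX2-NES, so it entered the 786 through that line alone. Of 17 glycolytic genes and 31 proteasome genes none was included, and lists of that size would hold few at a share of 3.95%.

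Bound RNA, which did not enter the choice of genes, was compared for the same lines. The median difference of log2(RPKM + 1) between H2B-APEX2 and APEX2-NES was 0.29 in the 375 genes that reached a mean of 1 RPKM, beside 0.19 in 3957 protein-coding genes. Of the 375, 88 (23.5%) were at least 2-fold higher and 34 (9.07%) lower, against 24.4% and 13.8% of the protein-coding genes. Genes called higher by footprints in H2B-APEX2 had a median RNA difference of 0.54 (61 genes), and those called lower one of 0.20 (59 genes). The 59 genes with lower 5' UTR shares thus did not have lower bound RNA on the whole, with 14 of them at least 2-fold higher and 8 lower. Across 267 genes with clusters in both lines, Pearson's r between the log2 ratio of 5' UTR shares and the RNA difference was 0.21, and for Connexin43-APEX2 against APEX2-NES it was 0.00 over 168 genes. These values are across genes of the same libraries and describe them only.

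For the other pairs the median bound RNA difference of the genes was -0.21 for Connexin43-APEX2 minus APEX2-NES (297 genes) and 0.00 for H2B-APEX2 minus control (417 genes). It was -0.24 for APEX2-NES minus control (381 genes) and -0.45 for Connexin43-APEX2 minus control (340 genes). The protein-coding genes gave -0.23, -0.10, -0.19 and -0.45 in the same order, close to the values of the 5' UTR genes. At least 2-fold differences were found for 1 higher and 8 lower genes in Connexin43-APEX2 minus APEX2-NES (0.337% and 2.69%, with 0.939% and 3.79% of protein-coding genes). For H2B-APEX2 minus control they were 69 and 47 (16.5% and 11.3%, with 19.4% and 17.3%). For APEX2-NES minus control they were 1 and 13 (0.262% and 3.41%, with 1.47% and 5.63%), and for Connexin43-APEX2 minus control 1 and 23 (0.294% and 6.76%, with 1.30% and 12.1%). None of these shares exceeded that of the protein-coding genes. In the table of 2016, the difference between Connexin43-APEX2 and APEX2-NES was 1.63, of the opposite sign. Columns of that table name a line but not the kind of RNA, and were taken as bound RNA because a separate column is named total. If they are, the direction of that difference depends on the table.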

How the data were processed

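Per the labels, footprints, streptavidin-bound RNA and total RNA were each sequenced once in 4 lines. The submitters' processing notes name hg19, bcl2fastq 2.17.1 and TopHat. Neither read counter nor cluster caller is named; both are not given in the sources used here. Deposited counts in the footprint sheets number the clusters and crosslinked reads of each gene by region. A gene at 0 has no called cluster. The gene tables of 2016 and 2017 hold expected counts, as deposited by the authors and not used further, and RPKM computed by the authors, in which a placeholder close to 0 stands for 0.

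Sheets were joined by Ensembl identifier. Ratios of shares have exact conditional (Clopper-Pearson) 95% intervals. The 6 pairs of lines were tested over all genes with 5' UTR reads, with at least 10 reads over the pair. RNA was compared as log2(RPKM + 1) in the 2017 table where the mean RPKM reached 1. 5' UTR length, GC content and overlaps come from GENCODE 29 by identifier. Named were the 15 genes with the highest mean share, 4 per direction and pair by the interval bound nearest 1, the 2 with most reads in each of 15 gene lists, and GJA1; other names were chosen after their values were seen. The genes, lists and rules were chosen with earlier results of these data known. The procedure was tested on simulated data. Alternatives changed the scale, read filter, cluster threshold, placement of reads and RNA table. Python 3.11.15, scipy 1.17.1, pandas 2.3.3, numpy 2.4.6, matplotlib 3.10.9, R 4.3.3 and edgeR 4.0.16 (TMM factors) were used. Some genes of the lists are not reported here.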

Additional observations from a re-analysis of the deposited data

How the results depend on the processing

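Numbers of genes are given as higher and lower calls. No paired analysis was possible because each group has 1 sample. For H2B-APEX2 against APEX2-NES (129 and 106), the share of all cluster reads gave 78 and 138, at least 5 summed clusters 35 and 33, at least 2 clusters 216 and 192, clusters in both lines 21 and 43, and unplaced reads counted 85 and 42. For Connexin43-APEX2 against APEX2-NES (63 and 90), TMM gave 151 lower, the median of ratios 139 lower, at least 20 reads 31 higher, at least 5 clusters 25 and 37, at least 2 clusters 117 higher, both lines 21 and 10, and unplaced reads 21 and 53. For Connexin43-APEX2 against H2B-APEX2 (94 and 109), all cluster reads gave 145 and 44, TMM 58 and 224, at least 20 reads 53 higher, at least 5 clusters 36 and 44, at least 2 clusters 158 higher, both lines 48 and 11, and unplaced reads 39 higher.

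Against the control, H2B-APEX2 (27 and 58) had 141 and 25 with TMM, 101 and 32 with the median of ratios, 30 lower with at least 20 reads, 12 and 24 with at least 5 clusters, 94 lower with at least 2 clusters, 1 higher with both lines, and 22 lower with unplaced reads. APEX2-NES (32 and 47) had 59 higher with all cluster reads, 118 and 31 with TMM, 112 higher with the median of ratios, 15 lower with at least 20 reads, 90 lower with no read filter, 15 and 21 with at least 5 clusters, 0 and 22 with both lines, and 21 and 27 with unplaced reads. Connexin43-APEX2 (45 and 38) had 83 higher with all cluster reads, 70 higher with the median of ratios, 13 lower with at least 20 reads, 84 lower with no read filter, 18 and 14 with at least 5 clusters, 59 lower with at least 2 clusters, and 2 and 10 with both lines. The smaller and larger cluster thresholds change how many genes are counted, and the cause of the other changes was not tested.

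The 5' UTR share (control first, then APEX2-NES, then H2B-APEX2, then Connexin43-APEX2) was 4.21%, 4.89%, 4.61% and 5.74% of exonic clusters, 3.23%, 4.33%, 2.90% and 4.75% by reads, and 12.1%, 14.4%, 7.98% and 16.6% within the 786 genes. Of all clusters it was 4.16%, 2.45% and 4.70% in the 3 APEX2 lines. The median bound RNA difference reversed to 1.63 for Connexin43-APEX2 minus APEX2-NES in the 2016 table, if its columns hold bound RNA. In that table it moved to -1.59 for APEX2-NES minus control and 0.00 for Connexin43-APEX2 minus control. Centring on all genes gave 0.28 for H2B-APEX2 minus control and 0.01 for Connexin43-APEX2 minus control. Restriction to both lines, counting of unplaced reads, exonic shares and leaving out overlapping 5' UTRs were chosen after seeing the data. Smaller moves of that median were to 0.01 for Connexin43-APEX2 minus APEX2-NES on centring and to -0.11 for H2B-APEX2 minus control without the filter. In all, 85 of 166 alternative values, these included, stayed within 1.5 times the count or within the tolerance set for them. That tolerance was 0.25 for RNA medians, on the log2 scale. Of the rest, 42 were smaller counts, 19 were larger counts, 19 were moved shares or medians and 1 was a reversed median. With 5275 5' UTR reads in the control and 11408 in Connexin43-APEX2, differences in genes of few reads were not detectable at this depth.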

Other observations

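Genes with zinc finger symbols (ZNF, ZFP, ZSCAN, ZKSCAN or ZBTB), a class chosen after the data were seen, made up 45 of the 786 genes. That was 7.45% of the 604 such genes in the sheets, beside 3.95% of all genes. Among genes with bound RNA it was 9 of 44 (20.5%), beside 9.34% of all. HOX genes, which encode homeodomain transcription factors that pattern the body axis, contributed 5 of 39, but none of the 5 with bound RNA. HOXB6 had 69 5' UTR reads in H2B-APEX2 and no 5' UTR cluster in the other lines, with 882 crosslinked reads over the whole gene in H2B-APEX2. HOXB3 had 84 reads in H2B-APEX2 and 6 in APEX2-NES, a ratio of 6.87 (3.03 to 19.2). NFYB, a subunit gene of a CCAAT-binding factor, had 57 reads and SPRTN, a DNA repair protease gene, 55, all in H2B-APEX2. HOXB6, NFYB and SPRTN entered the 786 through their H2B-APEX2 clusters alone, so this pattern follows from the choice of genes.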
